A study of Mus musculus with 21 samples.

Results

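The genes described here are 33 that make, sense, move or export cholesterol. They were taken by symbol from every RNA-seq table of a mouse study of sepsis-like activation of macrophages and liver. All 33 are among the 35550 genes listed for RAW264.7 (a mouse cell line with macrophage properties), and 18 of them are among the 5298 genes listed for liver. Wild-type (WT) RAW264.7 cells were given PBS, LPS (bacterial lipopolysaccharide, the standard trigger of macrophage activation) at 1 µg/mL, or the same LPS together with a compound labelled CTM at 0.5 mM. All were held for 24 h, in 3 groups with 6 libraries in all. In a separate experiment of 4 groups and 8 libraries, WT cells and cells labelled Vim-KO, in which the gene of the intermediate filament protein vimentin is knocked out, were given PBS or 1 µg/mL LPS for 12 h. Each cell group has 2 libraries, and the labels do not say whether the Vim-KO cells are 1 clone or whether replicates are separate cultures. The p-values therefore rest on library-to-library spread alone, which may be technical. Liver came from C57BL/6J mice, 1 library per group. WT mice received PBS, 30 mg/kg LPS, or 30 mg/kg LPS plus 100 mg/kg CTM by intraperitoneal injection. A further pair of WT livers came from LPS with or without depletion of liver macrophages, at a dose and by a depletion method that the labels do not give. They also do not say whether a liver library pools several mice. Mice labelled TG2-KO, in which transglutaminase 2 (gene Tgm2) is knocked out, received PBS or 30 mg/kg LPS. The ages of the mice and the time of liver collection are not given in the sources used here.

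Cells build cholesterol from acetyl-CoA through mevalonate, isoprenoid and squalene intermediates and then a series of sterol modifications. The transcription factor SREBP-2 (gene Srebf2) drives nearly all of these enzymes. It reaches the nucleus only when membrane sterol is low, because the escort protein SCAP is held in the endoplasmic reticulum by INSIG proteins when sterol is plentiful. Surplus cholesterol is esterified for storage, or is turned into oxysterols, which activate the LXR receptors (genes Nr1h2 and Nr1h3). LXRs raise the exporters Abca1 and Abcg1 and the ubiquitin ligase Mylip, which removes lipoprotein receptors, so that synthesis and LXR-driven genes are known to move in opposite directions when sterol levels change. Activated macrophages are known to reshape this pathway, in part through 25-hydroxycholesterol made by Ch25h.

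Promoter sequences of some members carry motifs known from sterol control. RefSeq windows of 300 bases (250 before to 50 after a transcript start, build GRCm38.p6) were used for 27 of the 33 members, 36 windows in all. Fdps, Fdft1, Sqle, Stard4, Npc1 and Abcg1 had none. The 250 upstream bases of 5 members are printed with the matched motifs in capitals, on the strand of the gene. A match on the opposite strand appears as its reverse complement, such as ATTGG for CCAAT. Every window printed carries a sterol regulatory element or an LXR-type repeat, both described below. Hmgcs1, Acat2 and Abca1 are shown as members that LPS changed strongly at 24 h (-1.44, -1.17 and 1.79). Mylip (-2.13) and Dhcr7 (-1.19) changed more than Acat2 but have windows without these motifs and are not printed. Insig1 and Srebf1 were chosen after their motif matches had been seen. Capitals mark the sterol regulatory element TCACNCCAC in Hmgcs1, its short form CACNCCAC in Insig1 and Acat2, the CCAAT box in Hmgcs1 and Insig1, and in Abca1 and Srebf1 a direct repeat of the type LXRs bind (GGTNA, 5 bases, GGTNA). All were searched on both strands, and the short element is contained in the long one. The windows lie at chr13:119690101-119690350 (plus strand) for Hmgcs1, chr5:28071162-28071411 (plus strand) for Insig1, chr17:12960726-12960975 (minus strand) for Acat2, chr4:53159896-53160145 (minus strand) for Abca1 and chr11:60210472-60210721 (minus strand) for Srebf1.
Hmgcs1: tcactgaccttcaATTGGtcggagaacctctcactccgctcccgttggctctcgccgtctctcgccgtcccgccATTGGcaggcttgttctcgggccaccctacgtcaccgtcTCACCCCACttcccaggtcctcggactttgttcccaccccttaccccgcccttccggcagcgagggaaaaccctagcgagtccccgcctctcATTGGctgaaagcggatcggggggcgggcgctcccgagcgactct
Insig1: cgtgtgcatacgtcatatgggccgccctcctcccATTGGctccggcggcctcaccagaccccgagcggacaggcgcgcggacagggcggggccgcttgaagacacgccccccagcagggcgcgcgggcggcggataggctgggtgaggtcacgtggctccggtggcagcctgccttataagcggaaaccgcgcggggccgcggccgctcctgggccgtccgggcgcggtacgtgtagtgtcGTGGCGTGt
Acat2: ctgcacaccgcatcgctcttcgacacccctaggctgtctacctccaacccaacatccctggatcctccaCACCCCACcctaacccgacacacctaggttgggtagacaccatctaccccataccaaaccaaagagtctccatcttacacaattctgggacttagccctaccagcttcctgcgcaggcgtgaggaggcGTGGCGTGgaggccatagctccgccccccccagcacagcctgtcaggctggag
Abca1: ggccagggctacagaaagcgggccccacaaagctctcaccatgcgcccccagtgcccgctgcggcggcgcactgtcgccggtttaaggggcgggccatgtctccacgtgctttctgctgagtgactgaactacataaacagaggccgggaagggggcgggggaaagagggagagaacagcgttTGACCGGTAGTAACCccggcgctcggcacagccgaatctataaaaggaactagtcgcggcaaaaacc
Srebf1: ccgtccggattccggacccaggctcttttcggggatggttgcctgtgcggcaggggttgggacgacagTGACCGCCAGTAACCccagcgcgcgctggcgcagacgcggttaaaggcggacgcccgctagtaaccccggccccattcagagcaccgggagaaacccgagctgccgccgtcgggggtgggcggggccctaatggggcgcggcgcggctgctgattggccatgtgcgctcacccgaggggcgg
Among the 27 members with a window used, the long sterol element was found only in Hmgcs1, against 1.44% of the 27025 genes with a window. The short form was found in Acat2, Hmgcs1 and Insig1, against 7.12% of genes. The LXR-type repeat was found in Abca1, 67 bases before the start, and in Srebf1, 182 bases before it, against 0.818% of genes. A CCAAT box (CCAAT), the site of the factor NF-Y, was present in 21 of the 27 members and in 14 of the 15 synthesis genes with a window, against 41.1% of genes. The E-box CACGTG was present in 6 members, against 8.09% of genes, and the interferon-type element (GAAA, 2 bases, GAAA) in Ebp alone, against 3.99%. These matches describe letters in the windows and were not tested as binding sites.

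Expression was given as TPM (transcript abundance as a share of all transcripts), a level corrected for gene length and library size, so read depth is unknown and no counting interval can be given. TPM summed to between 993386.5 and 999190.5 per library, and the libraries of a group correlated with r between 0.986 and 0.99 over genes. With PBS, Vim was at 1930 and 1877 TPM in WT and 17 and 18.7 TPM in Vim-KO cells. Tgm2 was at 35.7 TPM in WT and 0.74 TPM in TG2-KO liver with PBS, so both genotype labels matched the targeted gene. All 7 macrophage markers were present in every RAW264.7 library, and all 7 hepatocyte and 5 Kupffer cell markers stayed below 1 TPM. Within each cell experiment, changes were tested with limma on log2(TPM + 1) for genes whose mean over an experiment reached 1 TPM, which left 11030 genes at 24 h and 11115 at 12 h. A gene was called higher or lower at an adjusted p under 0.05 (Benjamini-Hochberg over all genes tested). Fold changes on this scale understate those of low genes. Ch25h missed the filter: it was listed at 0 in all 24 h libraries and at no more than 0.273 TPM at 12 h, so 32 members were tested. Because TPM are shares of a fixed total, libraries were also scaled by median-of-ratios. This moved the median change of all genes by 0.24 for LPS at 24 h, 0.35 in WT and 0.24 in Vim-KO cells at 12 h, and 0.16 for LPS plus CTM against PBS. The interaction moved by -0.12, and the other comparisons by less than 0.1. Calls are therefore given as listed and, where they differ, after scaling.

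LPS for 24 h lowered most of the cholesterol synthesis pathway in WT cells. Of the 18 synthesis genes, 14 fell, 1 rose and 3 did not pass, with a median change of -0.53 (log2) against -0.23 over all genes tested. Among all genes, 45.1% were called lower and 20.9% higher in this comparison. Over all 32 tested members, 19 were lower and 6 higher. After scaling, 12 members were lower and 6 higher, 9 synthesis genes fell, their median was -0.29, and 30.7% of all genes were lower and 31.6% higher.

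All 7 genes of the mevalonate arm fell. Hmgcs1, which makes HMG-CoA and opens the mevalonate route, stood at 52.6 and 51.7 TPM in the PBS libraries, and LPS brought it to 17.9 and 19.3 TPM. The groups did not overlap, and the log2 change was -1.44 (SE 0.087, adjusted p = 1.03e-05). Idi1, which isomerises the isoprenoid building block, went from 66.2 and 63.1 to 29.2 and 28.4 TPM, a change of -1.14 (SE 0.072, adjusted p = 1.3e-05). Acat2, the cytosolic thiolase that joins acetyl-CoA units, went from 33.6 and 33.2 to 15.6 and 13.1 TPM, a change of -1.17 (SE 0.1, adjusted p = 6.23e-05). Both LPS libraries lay below both PBS libraries in each of these genes. Fdps, the farnesyl diphosphate synthase and the most abundant member with PBS, fell from 319 and 309.9 to 181 and 188 TPM, with a change of -0.77 (adjusted p = 1.55e-05). Pmvk, a mevalonate pathway kinase, was lower at -0.63 (adjusted p = 0.000624). Mvk and Mvd, the other kinase and the decarboxylase of this arm, changed by -0.41 (adjusted p = 0.029) and -0.30 (adjusted p = 0.0128). After scaling these last changes were -0.16 and -0.05 and did not pass, with adjusted p = 0.288 and 0.646.

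The squalene and sterol arm was mixed. Sqle, the squalene epoxidase and a known control point of the pathway, went from 65.4 and 66.8 TPM to 28.3 and 24.4 TPM, a change of -1.30 (SE 0.088, adjusted p = 1.85e-05). Dhcr7, the reductase that completes cholesterol, went from 33.2 and 29.1 to 14.5 and 11.7 TPM, a change of -1.19 (SE 0.14, adjusted p = 0.000216). Groups did not overlap in either gene. Ebp, a sterol isomerase, changed by -0.94 (adjusted p = 0.000631), and Cyp51, the lanosterol demethylase, by -0.60 (adjusted p = 0.000414). Fdft1, the squalene synthase that commits farnesyl units to sterols, went the other way, from 21.4 and 19.4 to 29.5 and 28 TPM, a rise of 0.48 (SE 0.1, adjusted p = 0.00448). Lss (lanosterol synthase), Sc5d (a desaturase) and Msmo1 (a methylsterol oxidase) passed as lower at -0.45, -0.47 and -0.22. After scaling none of these passed, and Msmo1 turned to 0.04. Tm7sf2, Nsdhl and Hsd17b7, later sterol-modifying enzymes, gave -0.03, -0.16 and -0.26 and did not pass.

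Genes that control SREBP split. Insig2, an anchor that holds SCAP and SREBP in the endoplasmic reticulum, went from 22.2 and 19.3 to 37 and 33 TPM, a rise of 0.73 (SE 0.11, adjusted p = 0.000721). Srebf1, which encodes SREBP-1, went from 89.2 and 79.1 to 46.1 and 43.4 TPM, a change of -0.89 (SE 0.089, adjusted p = 0.000108). Neither gene's groups overlapped. Insig1, the INSIG that SREBP itself induces, was at 56.5 and 52.4 TPM without and 52.4 and 50.4 TPM with LPS and did not pass (adjusted p = 0.485). Srebf2, the SREBP-2 gene, gave -0.14 (adjusted p = 0.113). Scap, the escort gene, changed by -0.42 (adjusted p = 0.0334) as listed and -0.17 after scaling, where it did not pass (adjusted p = 0.305).

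Of the 3 members that move cholesterol inside the cell 2 rose and 1 fell, and the storage enzyme rose. Npc2 and Npc1, which carry cholesterol out of lysosomes, went from 134 and 142 to 270.5 and 289 TPM and from 20.9 and 18.7 to 38.8 and 34.1 TPM. Their changes were 1.01 (adjusted p = 8.72e-06) and 0.85 (adjusted p = 0.000606). Soat1, which esterifies cholesterol for storage, went from 201 and 222 to 367 and 371 TPM, a rise of 0.80 (SE 0.059, adjusted p = 2.75e-05). The PBS and LPS libraries did not overlap in these 3 genes. Stard4, a sterol transfer protein that SREBP-2 is known to induce, fell from 32.5 and 29.7 to 14.8 and 13.2 TPM, with -1.09 (adjusted p = 0.000848).

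LXR-driven genes did not move as a block. Abca1, the exporter that loads cholesterol onto lipid-poor apolipoprotein, rose from 6.13 and 8.7 to 33 and 23.4 TPM, a change of 1.79 (SE 0.21, adjusted p = 0.000226). Mylip fell from 15.3 and 15.4 to 3.03 and 2.49 TPM, the largest fall of any member, at -2.13 (SE 0.14, adjusted p = 1.46e-05). Abcg1, the exporter to mature lipoprotein particles, was at 55.1 and 46.5 TPM without and 39.4 and 43.1 TPM with LPS, and its call as lower (-0.29, adjusted p = 0.0478) was lost after scaling (-0.04). The receptor genes Nr1h3 (LXR-alpha) and Nr1h2 (LXR-beta) gave -0.30 and -0.12 and did not pass. Leaving out 1 library in turn ended 7 of the 25 calls, those of Abcg1, Lss, Msmo1, Mvd, Mvk, Sc5d and Scap. The highest adjusted p was 0.267 (Abcg1 without LPS2, LPS3 or PBS1), and Scap's call was lost without any 1 of the 4 libraries (up to 0.169). The 7 macrophage markers summed to 10290 to 10560 TPM with PBS and 14270 to 14560 TPM with LPS. With LPS plus CTM the sum was 15440 to 15460 TPM. Most of each sum was Lyz2, with means of 7216, 9691 and 11100 TPM. By their means, Csf1r and Adgre1 were lower with LPS than with PBS, and the other markers higher. Csf1r and Lyz2 were higher with LPS plus CTM than with LPS alone, and the other markers lower. The part of these markers in the member changes was not tested.

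**Figure D1:**
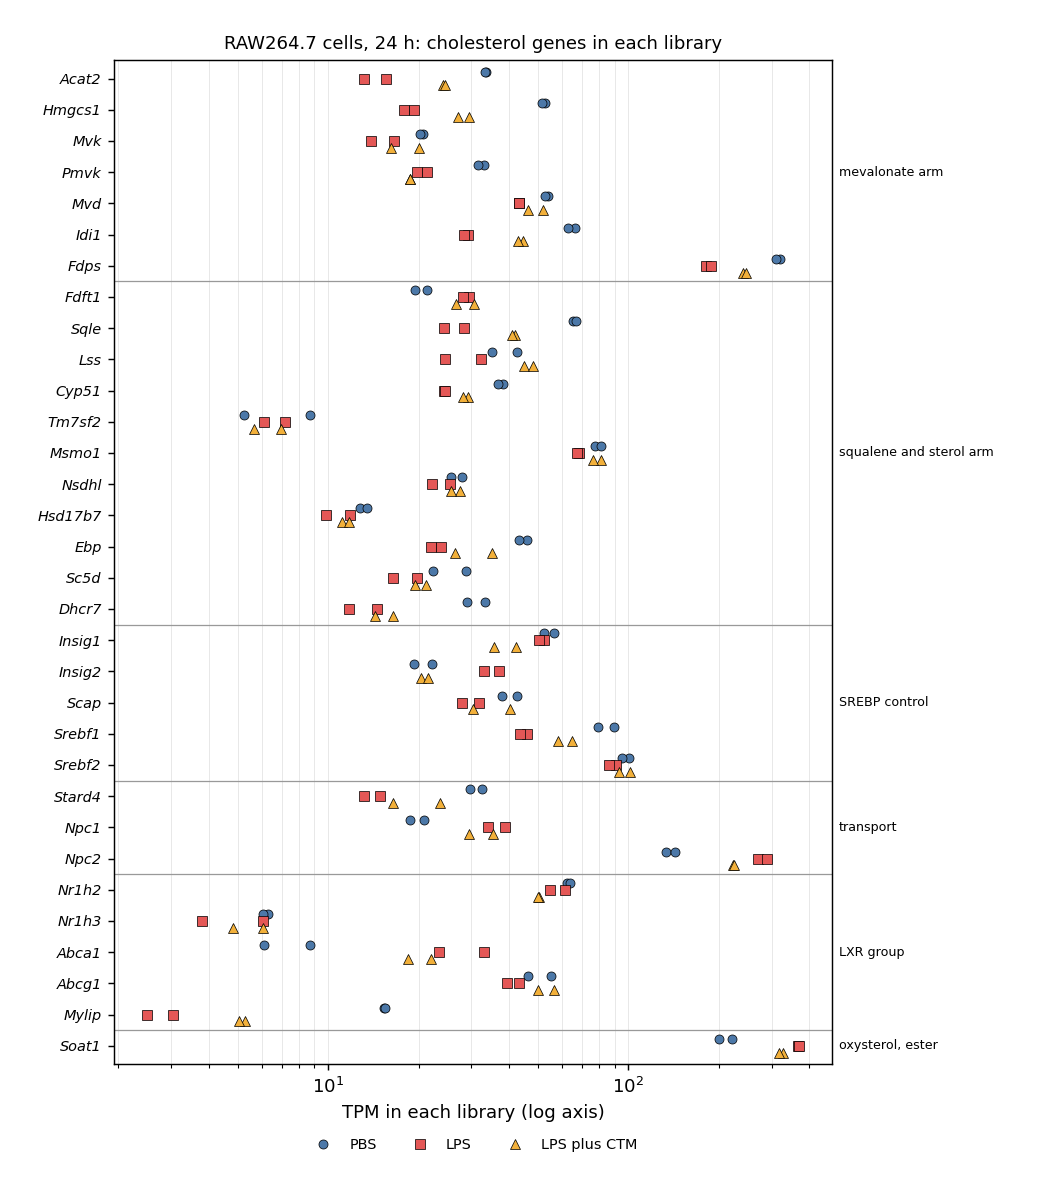
TPM (log axis) of the 32 members with values above 0 in every 24 h library, 1 point per library, for PBS, LPS and LPS plus CTM. In the mevalonate arm both LPS libraries lie to the left of both PBS libraries for all 7 genes as listed (Mvk and Mvd do not pass after scaling), while Abca1, Npc1, Npc2 and Soat1 lie to the right.

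Other genes of the pathway moved as follows with LPS at 24 h. Of 8 tested genes of synthesis and lipoprotein uptake, 2 rose and 5 fell. Those that fell include the lipoprotein receptor gene Scarb1 (-1.15, adjusted p = 1.47e-05), Lbr and Tmem97. All 12 fatty acid targets of SREBP-1 were tested and 11 fell, led by the fatty acid synthase Fasn (-1.93, adjusted p = 1.95e-05), Elovl6 and Scd2. After scaling, 8 of the 12 fell. Of 6 further LXR targets tested, 5 fell. In contrast, 7 of 12 genes of cholesterol transport and ester breakdown rose and 2 fell, led by Osbpl8 (1.75, adjusted p = 2.15e-06), a lipid exchange protein at membrane contacts. Of 10 genes of SREBP processing and sterol-regulated degradation 6 fell and 2 rose as listed, and 4 fell and 4 rose after scaling, led by the ubiquitin ligase Rnf145 (-2.41, adjusted p = 6.7e-05). Of 3 tested genes of oxysterol formation and sensing 2 fell, led by Gpr183 (-1.31, adjusted p = 1.73e-05). All 8 genes used as an activation check, such as Il1b, rose.

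CTM given with LPS raised part of the synthesis pathway above its level with LPS alone. Of 18 synthesis genes, 6 were higher, none was lower in limma (0 also at an unadjusted p under 0.05) and 12 did not pass. Their median was 0.22 against 0.07 over all genes. In this comparison 16.1% of all genes were called higher and 9.45% lower. Over all members 9 were higher and 3 lower as listed, and 8 and 5 after scaling, when 11.5% of all genes were higher and 13.9% lower. Hmgcs1 was at 29.5 and 27 TPM with CTM, above the 17.9 and 19.3 TPM with LPS alone, a change of 0.58 (SE 0.087, adjusted p = 0.00412). Acat2 stood at 24.1 and 24.6 TPM (0.73, adjusted p = 0.00346) and Sqle at 41.8 and 40.8 TPM (0.63, adjusted p = 0.00333). In all of these the CTM libraries lay above the LPS libraries. Idi1, Fdps and Lss were higher by 0.59, 0.40 and 0.71. Srebf1, at 64.7 and 58.3 TPM, was higher by 0.45 (adjusted p = 0.0114).

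The INSIG genes went down with CTM. Insig2 was at 20.3 and 21.4 TPM, below both LPS libraries, a change of -0.72 (SE 0.11, adjusted p = 0.00396). Insig1 was at 42.3 and 35.6 TPM, -0.40 (adjusted p = 0.0241). Npc2 fell to 222 and 224 TPM, -0.32 (adjusted p = 0.00833). Among LXR-driven genes, Mylip rose to 5.26 and 5.03 TPM (0.71, adjusted p = 0.0106). Abcg1 passed at 0.36 (adjusted p = 0.049) as listed but not after scaling (adjusted p = 0.121). Abca1, at 18.4 and 22.1 TPM against 33 and 23.4 TPM with LPS alone, did not pass (-0.44, adjusted p = 0.155). Npc1, Nr1h2, Nr1h3, Stard4, Scap and Srebf2 did not pass either, and Soat1 (-0.19) and Nr1h2 (-0.21) passed as lower only after scaling. Leaving out 1 library ended the calls of Abcg1, Insig1, Lss, Mylip, Npc2 and Srebf1, with adjusted p up to 0.239. Without CTM2, 5 members were higher, and without CTM3, 1 was lower. The activation check genes were lower with CTM in all 8 cases, for example Il1b at 226 and 192 TPM against 968 and 986 TPM with LPS alone, and the part of that difference in the changes of the members was not tested.

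Cells with LPS plus CTM still differed from PBS cells. Of 18 synthesis genes 9 were lower, 1 was higher (Fdft1) and 8 did not pass, with a median of -0.34 against -0.16 over all genes. Here 35.5% of all genes were called lower and 17.4% higher. Over all members 14 were lower and 5 higher as listed, and 12 and 5 after scaling, when 22.9% of all genes were lower and 26.0% higher. Against PBS, Hmgcs1 was at -0.86 (adjusted p = 0.000231), Dhcr7 at -0.97 (adjusted p = 0.00103) and Mylip at -1.41 (adjusted p = 0.0002), all lower. Abca1, Npc1, Npc2 and Soat1 were higher, at 1.35, 0.68, 0.69 and 0.61. Insig2 gave 0.01 (adjusted p = 0.932), and its CTM libraries lay within the PBS range. This comparison shares its PBS libraries with the LPS comparison and its CTM libraries with the comparison against LPS. Leaving out 1 library ended the calls of Acat2, Ebp, Fdft1, Nr1h2 and Stard4, with adjusted p up to 0.0875 (Stard4 without CTM3 or PBS1).

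Among other pathway genes, 9 of the 12 SREBP-1 fatty acid targets were higher with CTM than with LPS alone, led by Fasn (1.23, adjusted p = 0.00132). Of 8 genes of synthesis and lipoprotein uptake 5 were higher and 1 lower. Of 12 transport and ester genes 3 were lower and 1 higher, led by Gramd1a (-0.61, adjusted p = 0.00165), an endoplasmic reticulum sterol transporter.

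At 12 h in WT cells some synthesis genes rose with LPS while others fell, and the exporters diverged. As listed, 5 of 18 synthesis genes rose, 6 fell and 7 did not pass, with a median of -0.06 against -0.35 over all genes. After scaling 10 rose and 2 fell, with a median of 0.31. Among all genes 53.1% were called lower and 17.8% higher as listed, and 31.8% and 33.3% after scaling. Over all members 14 were lower and 7 higher as listed, against 5 and 15 after scaling. Both counts of higher members include Abca1, which only the WT LPS libraries brought past the filter. The 12 h and 24 h tables are separate experiments with separate normalization, and the difference between them was not tested.

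Lss, at 13.9 and 18.5 TPM with PBS, reached 25.6 and 33.8 TPM after LPS, a rise of 0.84 (SE 0.2, adjusted p = 0.00551). Msmo1 went from 44.8 and 37.1 to 63.5 and 63 TPM (0.62, adjusted p = 0.00055), and Sc5d from 21.4 and 19.6 to 36.9 and 30.1 TPM (0.67, adjusted p = 0.00387). These 3 enzymes of the sterol arm had no overlap between groups. Hsd17b7 and Fdps passed as higher at 0.48 and 0.19. Insig1 rose from 18.8 and 16.6 to 23.6 and 27.1 TPM, 0.49 (adjusted p = 0.00669). Acat2 fell from 30.1 and 30.1 to 15.6 and 15.1 TPM, -0.93 (adjusted p = 1.22e-05), and Tm7sf2 from 3.66 and 3.28 to 1.25 and 1.28 TPM, -0.98 (adjusted p = 0.000514). Scap, the SREBP escort, fell from 46.9 and 59.8 to 24.7 and 27.9 TPM, -0.99 (adjusted p = 0.00159). Acat2, Tm7sf2 and Scap also passed as lower after scaling. Hmgcs1 was at 22.6 and 21.7 TPM without and 23.2 and 24.6 TPM with LPS. It did not pass as listed (0.10) and passed as higher after scaling (0.47). Idi1, Mvd, Fdft1, Nsdhl, Srebf2, Nr1h2 and Nr1h3 likewise passed as higher only after scaling. Cyp51, Ebp and Insig2 passed under neither scale. The falls of Mvk, Pmvk, Dhcr7, Srebf1, Stard4 and Npc1 as listed, between -0.54 and -0.39, did not pass after scaling. Those of Sqle, Npc2 and Soat1 turned to 0.06, 0.11 and 0.13 after scaling.

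Abca1 was higher and Abcg1 lower with LPS in WT cells at 12 h. Abca1 went from 1.54 and 0.994 TPM to 9.81 and 13 TPM, a difference of 2.45 and a ratio of means of 9.01. Abca1 averaged at least 1 TPM at 12 h only through these WT LPS libraries, so no p is given for its comparisons with them. Abcg1 fell from 50.6 and 56 TPM to 12.8 and 13.1 TPM, a change of -1.96 (SE 0.094, adjusted p = 8.99e-07). Mylip, another LXR target, fell from 10 and 9.83 to 5.21 and 4.87 TPM, -0.86 (adjusted p = 0.000223). The libraries did not overlap in these 3 genes, and the calls of Abcg1 and Mylip held after scaling. Leaving out 1 library ended 10 of the 21 calls in this comparison, those of Dhcr7, Fdps, Hsd17b7, Insig1, Mvk, Npc1, Soat1, Sqle, Srebf1 and Stard4 (adjusted p up to 0.255, Soat1 without WT_LPS1, WT_PBS1 or WT_PBS2). Without WT_PBS2, 4 members were higher and 8 lower. Without WT_LPS1, 8 were lower. Among other pathway genes, 9 of 12 SREBP-1 fatty acid targets and 5 of 6 further LXR targets fell, the latter led by the lipoprotein lipase Lpl (-1.85, adjusted p = 2.23e-07). All 3 tested genes of oxysterol formation and sensing fell, led by the receptor Gpr183 (-3.43, adjusted p = 1.49e-07) and the hydroxylase Cyp27a1 (-3.20, adjusted p = 5.67e-07).

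**Figure D2:**
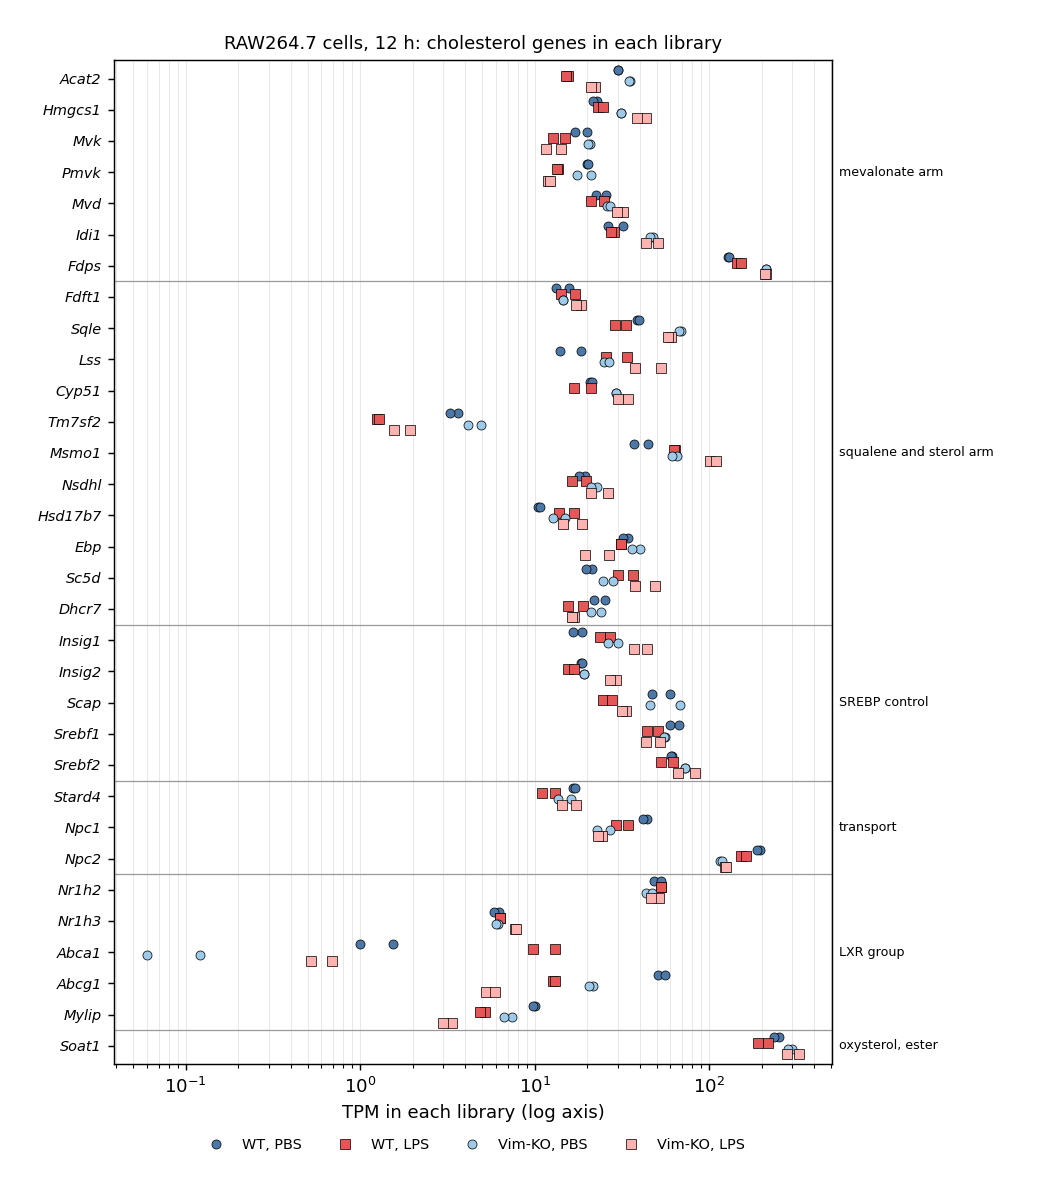
TPM (log axis) of the 32 tested members in each 12 h library, for WT and Vim-KO cells with PBS or LPS. For Sqle and Fdps all 4 Vim-KO libraries lie to the right of all 4 WT libraries, and for Abca1 the Vim-KO libraries lie below 1 TPM.

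Without LPS, Vim-KO cells had higher levels of several synthesis genes and lower levels of both exporters than WT cells. With PBS, 7 of 18 synthesis genes were higher in Vim-KO than in WT cells, none was lower in limma (0 also at an unadjusted p under 0.05) and 11 did not pass. Their median was 0.32 against -0.05 over all genes. The 12 h comparisons share libraries with each other, so each is given by its own values. Among all genes 17.7% were called higher and 25.4% lower, against 8 and 5 of the 32 members. After scaling 12 members were higher and 5 lower, when 21.2% of all genes were higher and 23.0% lower. Sqle was at 38.4 and 39.5 TPM in WT and 69.1 and 67.2 TPM in Vim-KO cells, a difference of 0.79 (SE 0.082, adjusted p = 0.000174). Fdps was at 129 and 130.3 TPM in WT and 212 and 211 TPM in Vim-KO cells, a difference of 0.70 (SE 0.054, adjusted p = 3.61e-05). Hmgcs1 was at 22.6 and 21.7 TPM in WT and 31.3 and 31.4 TPM in Vim-KO cells, 0.48 (adjusted p = 0.00239). No library of one genotype overlapped the other in these genes. Idi1, Lss, Cyp51 and Msmo1 were higher by 0.67, 0.65, 0.46 and 0.62, and the feedback gene Insig1 by 0.64. Acat2, Hsd17b7, Srebf2 and Soat1 passed as higher only after scaling.

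The members lower with PBS were exporters, Mylip and the lysosomal carriers. Abca1 was at 1.54 and 0.994 TPM in WT and 0.0602 and 0.121 TPM in Vim-KO cells, a difference of -1.05 (SE 0.19, adjusted p = 0.00352). Abcg1 was at 50.6 and 56 TPM in WT and 21.5 and 20.4 TPM in Vim-KO cells, a difference of -1.31 (SE 0.094, adjusted p = 2.61e-05). Mylip was lower, at -0.44 (adjusted p = 0.0141). Npc1 went from 44.2 and 41.8 TPM in WT to 22.8 and 27 TPM (-0.77, adjusted p = 0.000955), and Npc2 from 196 and 187 to 116 and 118 TPM (-0.71, adjusted p = 6.5e-05). The receptor gene Nr1h3 was at 6.23 and 5.84 TPM in WT and 6.18 and 6.01 TPM in Vim-KO cells and did not pass (0.01, adjusted p = 0.936). Leaving out 1 library ended the calls of Cyp51 (any of the 4 libraries), Lss (without KO_PBS1, KO_PBS2 or WT_PBS1) and Mylip (without KO_PBS2, WT_PBS1 or WT_PBS2), with adjusted p up to 0.175. Abca1 passed the filter of 1 TPM only through its WT LPS libraries, which are not among the groups compared here. It was not tested at a filter of 5 TPM. The summed level of the 7 macrophage markers also differed between genotypes, 17380 to 17470 TPM in WT and 8934 to 8966 TPM in Vim-KO cells with PBS, and its part in these differences was not tested. Of 12 other genes of cholesterol transport and ester breakdown 9 were lower in Vim-KO cells, led by the lysosomal lipase Lipa (-1.39, adjusted p = 4.21e-06) and the ester hydrolase Nceh1 (-1.38, adjusted p = 2.63e-05).

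The genotypes also differed with LPS. In Vim-KO cells 10 of 18 synthesis genes were higher than in WT cells, 1 was lower (Ebp) and 7 did not pass, with a median of 0.40 against 0.04 over all genes. Among all genes 24.1% were called higher and 20.6% lower, against 14 and 6 of the 32 members. The lower members, here and after scaling, include Abca1, which only the WT LPS libraries brought past the filter. After scaling 8 synthesis genes and 12 members were higher, 6 members were lower, and 20.4% of all genes were higher and 25.6% lower. Sqle was at 29 and 33.5 TPM in WT and 60.8 and 58.2 TPM in Vim-KO cells, 0.91 (SE 0.082, adjusted p = 8.61e-05). Hmgcs1 was at 23.2 and 24.6 TPM in WT and 43.3 and 38.5 TPM in Vim-KO cells, 0.75 (SE 0.083, adjusted p = 0.000245). Msmo1 was at 63.5 and 63 TPM in WT and 101 and 109.8 TPM in Vim-KO cells, 0.73 (adjusted p = 0.000596). The genotypes did not overlap in these genes. Cyp51, Idi1, Fdps and Acat2 were higher by 0.75, 0.73, 0.50 and 0.46. Insig1 and Srebf2 were higher by 0.65 and 0.36, and Soat1 by 0.57 (adjusted p = 0.0023). Mvd, Lss and Nsdhl passed as higher at 0.42, 0.59 and 0.37, Lss and Nsdhl not after scaling, and Insig2 at 0.77.

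Exporters stayed lower in LPS-treated Vim-KO cells. Abca1 was at 9.81 and 13 TPM in WT and 0.695 and 0.523 TPM in Vim-KO cells, a difference of -2.94, given without a p because the WT LPS libraries alone brought it past the filter. Abcg1 was at 12.8 and 13.1 TPM in WT and 5.25 and 5.96 TPM in Vim-KO cells, -1.08 (adjusted p = 7.44e-05), and Mylip at 5.21 and 4.87 TPM in WT and 3.35 and 3 TPM in Vim-KO cells, -0.53 (adjusted p = 0.00624). Npc2 and Npc1 were lower, at -0.34 and -0.40, and Ebp at -0.44. Mvk, Pmvk, Dhcr7, Tm7sf2, Fdft1, Hsd17b7, Sc5d, Scap, Srebf1, Stard4, Nr1h2 and Nr1h3 did not pass. Leaving out 1 library ended the calls of Ebp, Lss, Mvd, Npc1, Nsdhl and Srebf2, with adjusted p up to 0.241 (Nsdhl without KO_LPS1 or WT_LPS1). The macrophage marker sum was 13730 to 14520 TPM in WT and 11330 to 12070 TPM in Vim-KO cells with LPS. Csf1r alone among these markers went the other way, with means of 327.5 TPM in WT and 660.9 TPM in Vim-KO cells. The 5 neutrophil markers summed to 894.6 to 910.2 TPM in WT and 13.1 to 13.6 TPM in Vim-KO cells, almost all of it S100a8 (908 and 892 TPM in WT), while 2 of the 5 were at 0 in every library. Their part in the member differences was not tested.

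Within Vim-KO cells LPS raised some synthesis genes and lowered others. Of 18 synthesis genes, 4 rose and 6 fell as listed, with a median of 0.05 against -0.23 over all genes, and 10 rose and 5 fell after scaling. Among all genes 45.8% were called lower and 20.5% higher as listed, and 31.9% and 32.3% after scaling. Over all members 8 were higher and 9 lower as listed, and 19 and 8 after scaling. Hmgcs1 rose from 31.3 and 31.4 to 43.3 and 38.5 TPM, 0.37 (adjusted p = 0.00455), and Msmo1 from 65.1 and 61.5 to 101 and 109.8 TPM, 0.73 (adjusted p = 0.000246). Lss, Sc5d and Insig1 rose by 0.77, 0.69 and 0.50. Acat2, Mvk, Pmvk, Ebp and Scap fell, between -0.76 and -0.62. Tm7sf2 was at -1.01 and Dhcr7 at -0.42, which was lost after scaling. Insig2 rose by 0.53 and Nr1h3 by 0.31. Abcg1 fell from 21.5 and 20.4 to 5.25 and 5.96 TPM, -1.73 (adjusted p = 1.73e-06), and Mylip from 7.4 and 6.67 to 3.35 and 3 TPM, -0.95 (adjusted p = 0.000141). Abca1 rose from 0.0602 and 0.121 to 0.695 and 0.523 TPM (0.56, adjusted p = 0.0334), staying below 1 TPM, and its call was lost without any 1 of the 4 libraries (adjusted p up to 0.12), as was that of Nr1h3 (up to 0.0943). Abca1 entered this test only through its WT LPS libraries, which are not among the groups compared. Without KO_PBS1, 4 members were higher, and without KO_LPS1, 5. The calls of Dhcr7, Insig1 and Lss were also lost without 1 library (up to 0.105, Dhcr7 without KO_LPS2 or KO_PBS1).

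The interaction term, which tests whether LPS acted differently in the 2 genotypes, was passed by 3 members, of which Abca1 supports nothing for the reason given with its values. Among all genes it called 13.7% higher and 6.96% lower, where higher means a more positive LPS change in Vim-KO cells. After scaling 9.82% were higher and 11.4% lower. None of the 18 synthesis genes passed in limma as listed (3 had an unadjusted p under 0.05, 1 higher and 2 lower), while Fdps (-0.32) and Ebp (-0.75) passed as lower after scaling. The median of the synthesis genes was 0.04 against 0.09 over all genes. The interaction was 0.72 (SE 0.12, adjusted p = 0.00442) for Insig2, which went from 18.5 and 18.6 to 15.6 and 16.8 TPM in WT cells. In Vim-KO cells Insig2 went from 19.2 and 19.1 to 29.3 and 27.2 TPM, and the Vim-KO LPS libraries lay above all other 12 h libraries. This call held in every alternative run. For Npc2 the interaction was 0.37 (adjusted p = 0.022), from 196 and 187 to 152 and 164 TPM in WT and 116 and 118 to 124 and 125 TPM in Vim-KO cells. It was lost after scaling (adjusted p = 0.0752), without the variance trend (adjusted p = 0.0511) and without WT_PBS1, WT_PBS2, WT_LPS1, KO_PBS1 or KO_PBS2 (up to 0.0928). For Abca1 it was -1.89, which rests on the filter and the pseudocount: the gene passed the filter only through its WT LPS libraries and stayed below 1 TPM in Vim-KO cells. As a ratio of mean TPM with LPS to that with PBS, Abca1 was at 9.01 in WT and 6.72 in Vim-KO cells. With a pseudocount of 0.1 in place of 1 the Abca1 interaction became -1.19 and did not pass (adjusted p = 0.15). The other 29 members did not pass. Stard4 and Ebp gave 0.53 (adjusted p = 0.0808) and -0.63 (adjusted p = 0.0529).

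**Figure D3:**
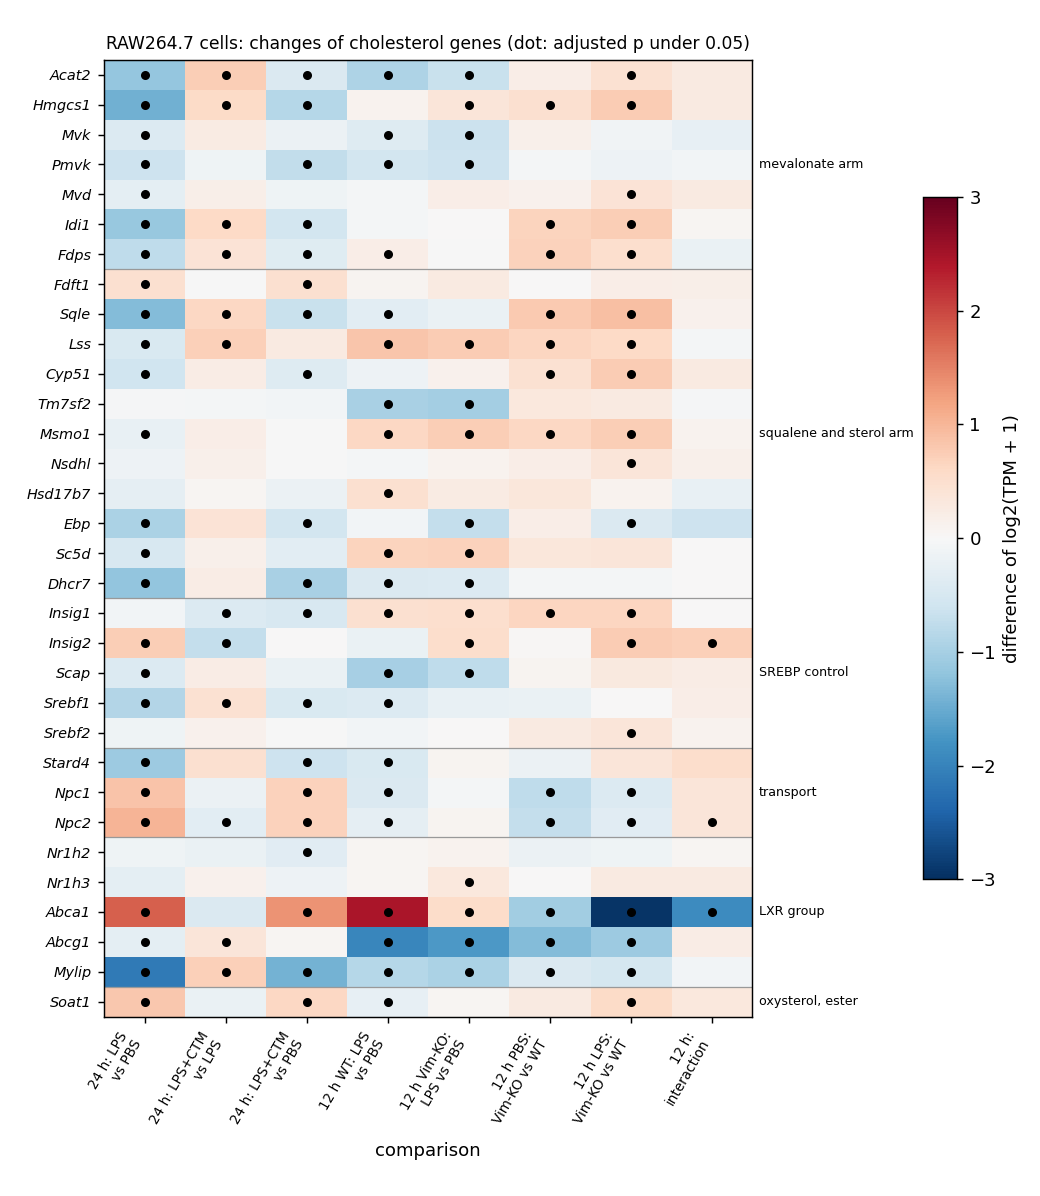
Differences of log2(TPM + 1) for the 32 tested members in 8 comparisons, red for higher and blue for lower in the first-named group, with a dot where the adjusted p was under 0.05. Dots of Abca1 at 12 h support nothing in comparisons that include the WT LPS libraries, which alone brought it past the filter. The synthesis rows are mostly blue for LPS at 24 h and mostly red for Vim-KO against WT, with differences in LPS comparisons moving up by 0.24 to 0.35 after scaling (Msmo1 at 24 h turns to 0.04), and Abca1 and Abcg1 differ in colour at 12 h in WT cells.

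Synthesis and LXR-driven genes were set side by side in each library. The mean log2(TPM + 1) of the 18 synthesis genes was 5.26 and 5.25 in the 24 h PBS libraries, 4.69 and 4.60 with LPS, and 4.96 and 4.92 with LPS plus CTM. For the set counted as LXR-driven (Abca1, Abcg1, Mylip and the receptor gene Nr1h3) it was 3.88 and 3.93, then 3.81 and 3.53, then 3.78 and 3.95. Whether LXRs drive Nr1h3 in these cells was not tested. The synthesis mean separated all 3 groups at 24 h, while the LXR-driven mean of the CTM libraries overlapped that of both other groups. The difference between both means was 1.38 and 1.33 with PBS, 0.88 and 1.07 with LPS and 1.18 and 0.97 with CTM, where LPS and CTM overlapped. At 12 h the difference was between 1.24 and 1.29 in all 4 WT libraries. In Vim-KO cells it was 2.30 in both PBS libraries and 2.79 and 2.64 with LPS, above every WT library. In both Vim-KO groups the synthesis mean was higher (4.77 to 4.95, against 4.46 to 4.58 in WT) and the LXR-driven mean was lower (2.14 to 2.62, against 3.18 to 3.34 in WT).

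Within the LXR-driven group the 2 exporters changed their share. Abca1 made up 10% and 15.8% of the summed TPM of Abca1 and Abcg1 in the 24 h PBS libraries and 45.6% and 35.2% with LPS. With LPS plus CTM the share was 27% and 28%, between the other groups. At 12 h it went from 2.95% and 1.74% to 43.5% and 49.8% in WT cells, and from 0.279% and 0.59% to 11.7% and 8.07% in Vim-KO cells. LPS libraries had the higher share in each of these settings, with no overlap. Shares and means are given without a test, because the genes were chosen with results in view.

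**Figure D4:**
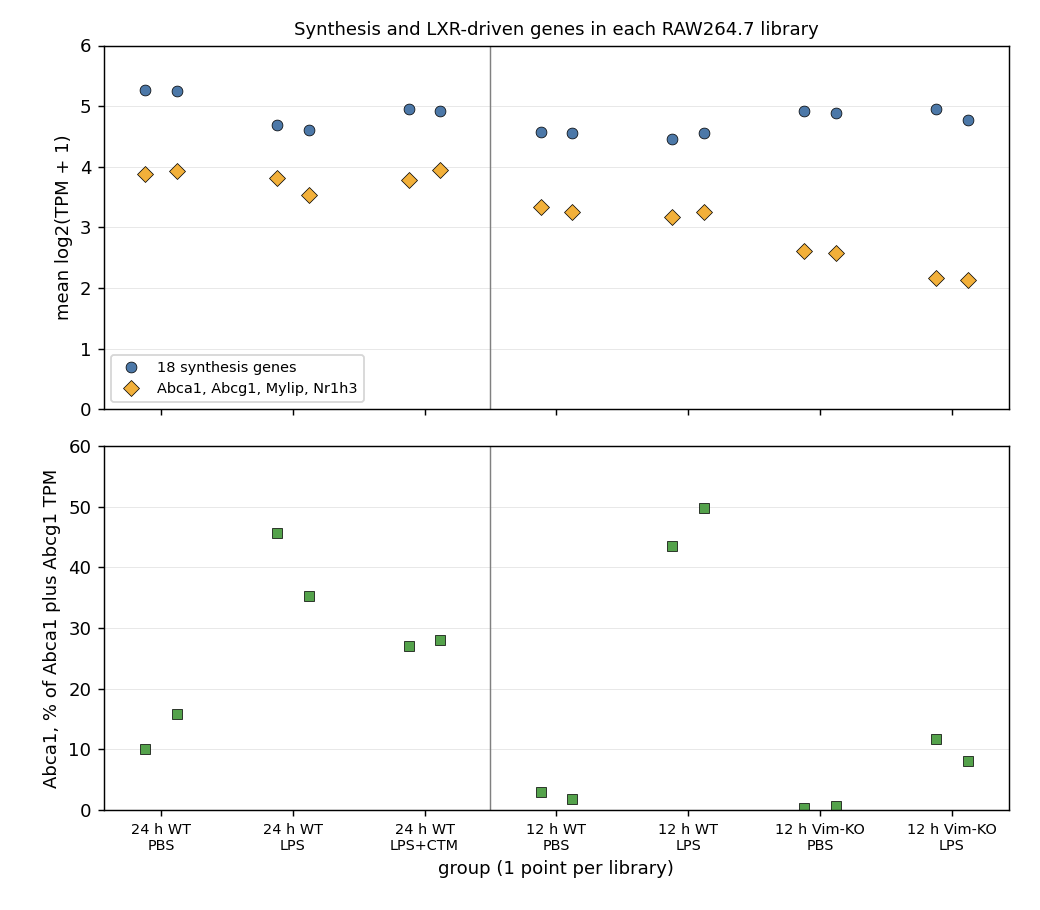
Upper panel, mean log2(TPM + 1) of the 18 synthesis genes (circles) and of Abca1, Abcg1, Mylip and Nr1h3 (diamonds) in each RAW264.7 library. Lower panel, Abca1 as a percent of Abca1 plus Abcg1 TPM: the 12 h WT LPS libraries reach 43.5% and 49.8%, and the Vim-KO LPS libraries 11.7% and 8.07%.

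In liver the deposited table holds only genes that differ at least 2-fold between the WT LPS and WT PBS libraries, so that contrast chose the rows and its values are a description. Other comparisons that use either of these libraries are affected by that choice as well. With 1 library per group no difference was tested, and whole liver mixes cell types, so fewer cells of a type and less RNA per cell cannot be told apart. None of 7 hepatocyte markers is among the listed genes, so the tissue label was not checked with them. The 18 listed members include 8 synthesis genes. Differences are of log2(TPM + 1), and those of at least 1 are counted.

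LPS liver had lower levels of most listed synthesis and SREBP genes and higher levels of Abca1 and Ch25h. In WT, 13 of 18 members were lower by at least 1 and 3 higher, where 46.3% and 20.6% of all listed genes were. Srebf1 was at 127 TPM without and 7.59 TPM with LPS, and Npc1 at 33.2 and 3.87 TPM. Sc5d and Fdft1 went from 99.8 to 26.7 and from 25.5 to 6.71 TPM. Abca1 went from 14.5 to 58.2 TPM and Sqle from 1.24 to 4 TPM. Ch25h, the hydroxylase that makes 25-hydroxycholesterol, went from 0.12 to 50.1 TPM, in contrast to RAW264.7 cells, where it was near 0 throughout. After scaling within this list 4 members were lower by at least 1 and 3 higher, where 8.04% and 25.3% of all listed genes were, and the differences of Acat2, Idi1, Insig1 and Scap turned to 0.21, 0.08, 0.17 and 0.13. Lss and Abcg1, lower by less than 1, also turned, to 0.24 and 0.06. Mylip, Nr1h3, Stard4, Mvk and Mvd were lower under both scales. Cell type markers differed between the same livers: from PBS to LPS the 6 listed macrophage markers summed to 45.8 and 391 TPM (Cd14, known to be induced by LPS, was at 2.45 and 374.7 TPM), the 3 neutrophil markers to 1.35 and 66.1 TPM, the 4 Kupffer cell markers to 48.01 and 26.8 TPM and the 4 sinusoidal endothelial markers to 75.6 and 33 TPM. Their part in the member differences was not tested.

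Few members differed by at least 1 with CTM in liver. Insig1 was at 29.1 TPM with LPS and 6.23 TPM with LPS plus CTM, a difference of -2.06, and Sqle went from 4 to 1.29 TPM (-1.13). These 2 members were lower by at least 1 and none was higher, where 0.887% of listed genes were lower and 0.698% higher. After scaling Stard4 (-1.01) was also past 1, where 1.81% of listed genes were lower and 0.585% higher. Abca1 was at 67.3 TPM with CTM and Ch25h at 37.9 TPM.

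A set of 3 synthesis genes was higher by at least 1 in the liver depleted of macrophages, both livers having received LPS. Mvk was at 2.2 TPM without and 6.49 TPM with depletion, Idi1 at 2.78 and 8.13 TPM, and Sqle at 5.74 and 16.6 TPM. Fdft1 lay just short of a difference of 1, at 0.99 (1.06 after scaling). No member was lower by 1 or more, where 2.59% of listed genes were higher and 6.25% lower (2.98% and 5.66% after scaling). Srebf1 and Ch25h were at 13.6 and 27.5 TPM without and 6.39 and 14.2 TPM with depletion. The 4 listed Kupffer cell markers summed to 62.9 TPM without and 10.2 TPM with depletion, and the 3 listed neutrophil markers to 97.3 and 188 TPM. The 6 macrophage markers summed to 345.46 and 558.88 TPM, most of it Cd14 at 290.71 and 540.41 TPM, while Lyz2 was at 40.1 and 13.9 TPM. The 3 fibroblast and stellate cell markers summed to 7.46 and 37 TPM, with Des at 0.36 and 24.5 TPM. Their part in the member differences was not tested.

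With LPS, Idi1, Sqle, Fdft1 and Mvk were higher by at least 1 in TG2-KO liver than in either WT liver that received LPS. All 8 listed synthesis genes were above the WT LPS liver of the PBS, LPS and CTM set, 5 of them by at least 1, with a median of 1.41 against 0.12 over all listed genes. Because the WT LPS and WT PBS livers of that set chose the listed genes, differences from either of them are affected by that choice. Over all members 7 were higher by at least 1 and none was lower, where 4.27% and 2.04% of listed genes were. Sqle was at 4 TPM in WT and 21.1 TPM in TG2-KO liver, Idi1 at 3.58 and 16.4 TPM, and Mvk at 0.47 and 5.74 TPM. Fdft1 was at 6.71 and 25.1 TPM, and Srebf1 at 7.59 and 26.6 TPM. Scaling lowered Mvd from 1.05 to 0.87 and Npc1 from 1.05 to 0.72, left 5 members higher by at least 1 and none lower, where 1.68% and 5.7% of listed genes were, and left all 8 synthesis genes above WT. Against the other WT LPS liver, the undepleted one of the depletion pair, whose dose is not given, 7 of the 8 synthesis genes were above WT, 4 by at least 1, with a median of 0.86 against -0.12 over all listed genes. In that comparison 4 members were higher by at least 1 and none lower, where 3.15% and 5.21% of listed genes were, and after scaling 5 were higher and none lower, where 5.36% and 2.91% were. Idi1, Sqle, Fdft1 and Mvk were higher there by 2.20, 1.71, 1.38 and 1.07, Mvd was at 2.87 TPM in WT and 2.92 TPM in TG2-KO liver, and Lss at 3.41 and 2.65 TPM. With PBS, 7 of the 8 synthesis genes were above WT, 2 by at least 1, with a median of 0.43 against -0.19 over all listed genes. Over all members 2 were higher by at least 1 and 1 lower (Mylip), where 2.94% and 4.76% of listed genes were, and after scaling 4 were higher and none lower, where 3.91% and 1.3% were. Sqle was then at 1.24 TPM in WT and 10.6 TPM in TG2-KO liver, and Idi1 at 8.82 and 26.8 TPM, while Fdft1, Mvd, Mvk and Acat2 differed by -0.11 to 0.15 and Insig1 by -0.99. With LPS the exporters were not higher: Abca1 was at 41.4 TPM and Abcg1 at 0.46 TPM in TG2-KO liver, against 58.2 and 0.66 TPM in the WT LPS liver of the PBS, LPS and CTM set. With PBS, Abca1 was at 22.6 TPM in TG2-KO and 14.5 TPM in WT liver (0.61, and 0.94 after scaling). Abcg1 was then at 0.98 and 1.59 TPM. RNA of the TG2-KO pair, of the depletion pair and of the WT PBS, LPS and CTM livers was extracted on 3 different dates, so genotype and extraction date cannot be told apart. With LPS the 6 listed macrophage markers summed to 391 TPM in WT and 440.28 TPM in TG2-KO liver, of which Cd14 made up 374.7 and 411 TPM, and the 3 neutrophil markers to 66.1 and 129 TPM, and their part was not tested.

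Within TG2-KO mice 5 of the 18 members were lower by at least 1 with LPS and 1, Ch25h, was higher, where 17.1% of listed genes were lower and 14.8% higher. After scaling 1 was lower and 3 higher, where 5.17% and 19.6% of listed genes were. Srebf1 went from 131 to 26.6 TPM, Sc5d from 165 to 53.7 TPM and Lss from 8.22 to 2.65 TPM. Stard4 and Npc1 were the other members lower by at least 1. Ch25h went from 0.97 to 36.2 TPM, and Abca1 from 22.6 to 41.4 TPM. From PBS to LPS the macrophage markers summed to 38.5 and 440.28 TPM (Cd14 at 2.57 and 411 TPM), the neutrophil markers to 26.8 and 129 TPM and the sinusoidal endothelial markers to 51 and 30.6 TPM, and their part was not tested.

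**Figure D5:**
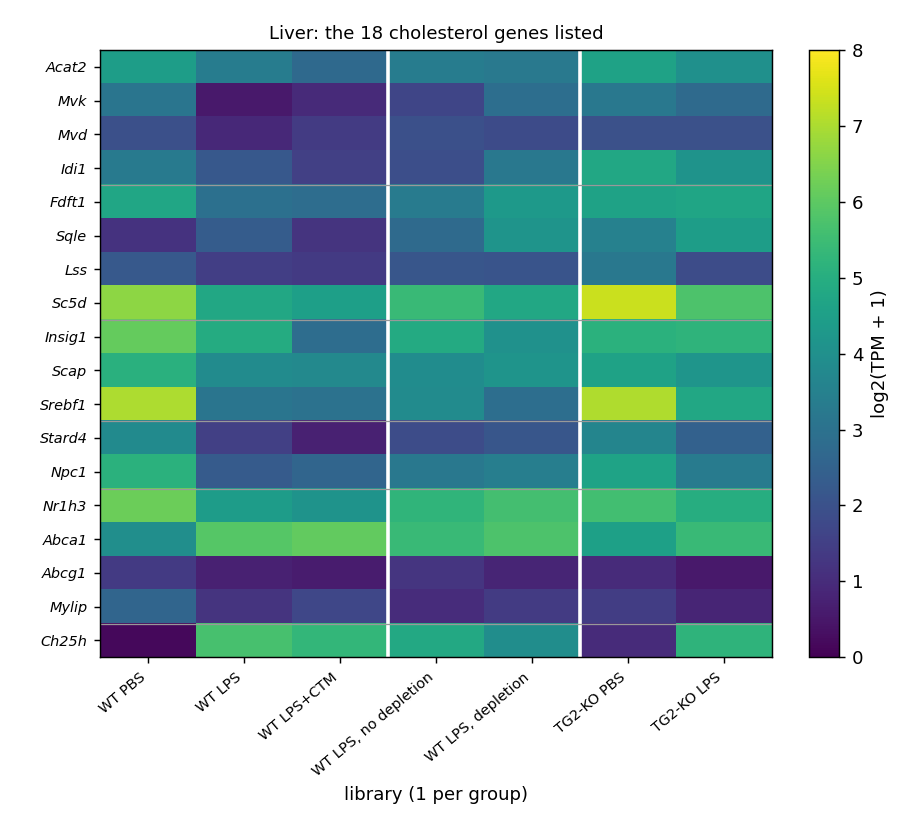
log2(TPM + 1) of the 18 listed members in the 7 liver libraries, with white lines between the RNA extraction dates. Srebf1 is at 127 and 7.59 TPM with PBS and LPS in WT and at 131 and 26.6 TPM in TG2-KO liver, and Ch25h is dark in both PBS libraries and bright with LPS.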

How the data were processed

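RNA-seq of RAW264.7 cells and mouse liver was analysed from TPM values that the authors deposited, made with Salmon on mm10 (GRCm38) per the submitters' processing notes; versions and quantification settings are not given in the sources used here, and TPM keep no read depth. Libraries were TruSeq stranded mRNA per the labels' protocols. The liver table was found to hold only genes at least 2-fold apart between WT LPS and PBS. The 24 h table numbers its LPS and CTM columns 2 and 3 where the labels number the samples 1 and 2, so these columns were used by group. TPM + 1 was log2-transformed, genes averaging 1 TPM or more per experiment were kept, and all groups of an experiment were fitted in limma 3.58.1 (R 4.3.3) with a trended variance prior, adjusting p by Benjamini-Hochberg (threshold 0.05). The procedure was tested on simulated data. Alternatives were a pseudocount of 0.1, no filter, a filter of 5 TPM, median-of-ratios scaling, no trend, only the groups compared, a replicate block, and each library left out. Setting TG2-KO liver against the other WT LPS liver was added after the data were seen. Tables and promoter motif searches used Python 3.11.15, pandas 2.3.3 and numpy 2.4.6, and figures matplotlib 3.10.9. Members and lists were chosen with earlier results of these data known. All members are accounted for; other genes come from lists of pathway genes, at most 4 per list, by the size of a called change, and 1 such gene is not reported here. With 1 library per liver group, differences of at least 1 were counted without a test. Only promoters with a sterol regulatory element or an LXR-type repeat were printed, and of these Insig1 and Srebf1 were chosen after their motif matches had been seen.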

Additional observations from a re-analysis of the deposited data

Results flagged for a closer look

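In the cells at 12 h, 3 members passed the test of whether LPS changed them differently in the 2 genotypes. Insig2 differed by 0.72 (limma, adjusted p = 0.00442), with a change of -0.19 in WT and 0.53 in Vim-KO cells. Npc2 differed by 0.37 (adjusted p = 0.022), with -0.28 in WT and 0.09 in Vim-KO cells, and this call was lost after scaling. Abca1 differed by -1.89, with 2.45 in WT and 0.56 in Vim-KO cells. It entered the test only through its WT LPS libraries and stayed below 1 TPM in Vim-KO cells, and the call was lost with the smaller pseudocount, so this value does not show a difference between the genotypes.

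In liver, 2 members were higher with LPS in TG2-KO mice and lower in WT mice as listed. With LPS minus PBS, Fdft1 differed by 0.09 in TG2-KO and -1.78 in WT liver, and Insig1 by 0.08 and -1.20. After scaling Fdft1 stood at 0.67 and -0.48, and Insig1 was higher in both, at 0.67 and 0.17. With 1 library per group these differences were not tested, and the WT difference itself chose the listed genes.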

How the results depend on the processing

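Scaling by median-of-ratios changed the number of members lower with LPS at 24 h to 12, lower with CTM against LPS to 5, higher and lower with LPS in WT cells at 12 h to 15 and 5, higher in Vim-KO cells to 19, and the interaction to 1 higher and 3 lower. It turned Msmo1 at 24 h to 0.04, Sqle, Npc2 and Soat1 in WT cells at 12 h to 0.06, 0.11 and 0.13, and Acat2, Idi1, Insig1 and Scap in WT liver to 0.21, 0.08, 0.17 and 0.13. With only the groups compared, 13 members were higher in Vim-KO cells with PBS. Without the trend 1 member was higher in the interaction, and with a pseudocount of 0.1 the number lower was 0 in limma (2 at an unadjusted p under 0.05). With a replicate block 2 members were lower in the interaction. Same-numbered samples deviated with r of -0.219 to 0.098 at 12 h and -0.031 between LPS and CTM at 24 h. The main fits used no pairing, although weak correlations cannot exclude that same-numbered samples were prepared together. The replicate block ended 5 of 86 member calls, and at 24 h it was not run for comparisons with PBS, whose column numbers differ. Calls lost without the filter (17), without the trend (10) or with only the groups compared (6) were all among those also lost with 1 library left out.

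With 1 library left out, the number of members higher and lower ranged from 6 to 6 and 14 to 18 for LPS at 24 h, 5 to 8 and 1 to 2 for CTM against LPS, 4 to 5 and 11 to 14 for CTM against PBS, 4 to 7 and 8 to 14 for LPS in WT and 4 to 7 and 8 to 10 in Vim-KO cells at 12 h, 6 to 7 and 4 to 5 for Vim-KO against WT with PBS, 10 to 16 and 4 to 6 with LPS, and 1 to 4 and 1 to 2 for the interaction. A group left with 1 library is assumed to vary like the others. Read depth is unknown, and 2 libraries per group limit what could pass.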
